A study of Mus musculus with 45 samples.

Results

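The interval from day 5 to day 7 was examined in mouse ESCs that had been kept in SL, medium with serum and LIF, and then differentiated along 3 courses. The members are the 6 libraries titled SL EB, SL EpiSC and SL Neural at day 5 and at day 7, of 45 libraries in the series, and they form 3 pairs, 1 for each course. All libraries of the series came from E14tg2a, a male wild-type ESC line of 129/Ola background. In the EB course the cells were aggregated in suspension in serum medium from which LIF had been withdrawn. In the EpiSC course they were plated on gelatin in N2B27, a defined serum-free medium, with Fgf2 and Activin A, the growth factors that maintain epiblast stem cells. In the Neural course they were plated on gelatin in N2B27 without these factors. Each course and day was represented by 1 library of ribosomal RNA-depleted total RNA. A course therefore had no replicate among the SL libraries. EB differed from the other courses in both the medium and the form of culture, which cannot be told apart, whereas EpiSC and Neural shared gelatin and N2B27 and differed by Fgf2 and Activin A. As a second measurement, the 4 libraries of the EB and Neural courses begun in 2iL were set beside them at the same days. 2iL is the medium with 2 kinase inhibitors and LIF. The 45 libraries include no day 5 library of the EpiSC course from 2iL. In bulk RNA, fewer cells of a type and less RNA per cell cannot be told apart.

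Cells leaving naive pluripotency pass through a formative state, marked by Fgf5, Otx2, Pou3f1 and Dnmt3b, before they respond to signals for the germ layers. Activin and Nodal signalling promotes primitive streak and endoderm genes such as Eomes and Mixl1, whereas cells in N2B27 without added Activin or BMP tend to take a neural fate through Sox1- and Pax6-positive progenitors, which in turn form neurons marked by Dcx, Tubb3 and Map2. Embryoid bodies form derivatives of all 3 germ layers next to one another.

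Read totals of the 6 SL libraries lay between 13577463 and 20169493, so that 3 reads corresponded to 0.149 to 0.221 CPM (reads of a gene relative to the library's reads in all genes, scaled by the TMM method). The 10 highest genes held 11.8 to 19.6% of the reads and mitochondrial genes 1.09 to 1.43%. The labels were compared with markers of the cell types, and here and in what follows 2 levels joined by "to" are the CPM at day 5 and at day 7. In the EpiSC course Pou5f1 stood at 248 to 219 CPM, Nanog at 85.4 to 208, Fgf5 at 47.5 to 27.8, Otx2 at 45.3 to 24.2 and Foxd3 at 8.17 to 3.22. These markers did not single out EpiSC. In EB Fgf5 (71.1 to 34 CPM), Otx2 (122 to 80.5) and Foxd3 (21.1 to 5.59) were higher on both days. In the Neural course Sox1 stood at 69.6 to 26.3 CPM, Pax6 at 53.1 to 25.5 and Tubb3 at 38 to 120.2. At day 7 Sox1 was higher in EpiSC (50.6 CPM) and EB (44.2 CPM) than in Neural. Pou5f1 was also present in the Neural course at 55 to 98.5 CPM. The Neural libraries held endoderm markers too, Sox17 at 54.5 to 55.3 and Foxa2 at 34.1 to 56.1 CPM. The EB libraries held the largest amount of Afp, at 374 to 602 CPM. Defining markers of blood and heart (Gata1, Klf1, Hbb-bh1, Hba-x, Nkx2-5, Tnnt2 and Myl7) reached at most 2.29 CPM in any of the 6 libraries, while Myh6 reached 8.77 CPM in Neural at day 7.

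The first question was how much of the change between day 5 and day 7 the 3 courses had in common. Few genes moved together. Of the 13587 genes that reached 2 CPM in at least 1 of the 6 libraries, 608 (4.47%) were higher by at least 1 log2 unit at day 7 in the EB course, 429 (3.16%) in the EpiSC course and 373 (2.75%) in the Neural course, on the scale of log2(CPM + 1). Lower by as much were 250 genes (1.84%) in EB, 376 (2.77%) in EpiSC and 74 (0.545%) in Neural. Only 12 genes (0.0883%) were higher in all 3 courses and 0 were lower in all 3, against 1028 genes higher and 662 lower in exactly 1 course. The pair with most genes in common was EB with EpiSC, with 127 genes higher in both, compared with 53 for EB with Neural and 29 for EpiSC with Neural. A further 112 genes went up by this amount in one course and down in another. Across genes, which are not independent replicates, the Spearman correlation of the change was 0.14 between EB and EpiSC, 0.03 between EB and Neural and 0.04 between EpiSC and Neural. The same course begun in 2iL gave 0.55 for EB and 0.75 for Neural. These counts per course compare 1 library with 1 library and carry no test.

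**Figure D1:**
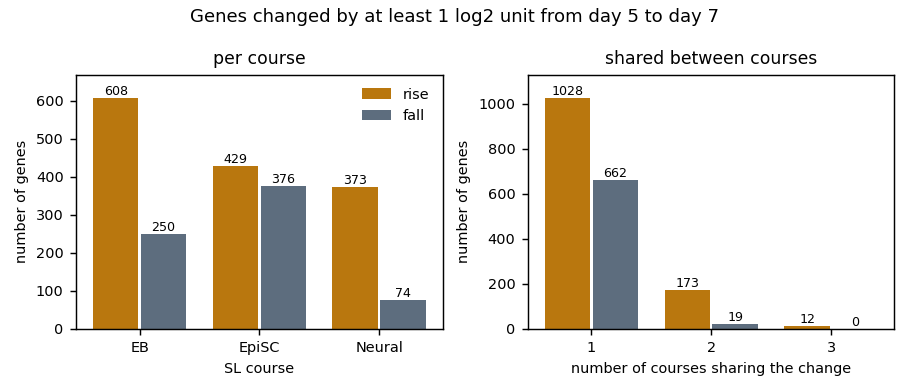
Number of genes whose log2(CPM + 1) differed by at least 1 between day 5 and day 7, of 13587 genes at 2 CPM or more. The left panel gives higher (rise) and lower (fall) genes in each SL course and the right panel the number of courses that shared the direction, in which 12 genes were higher and 0 lower in all 3.

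A test over the 3 pairs, with the course as a block, called few genes. In edgeR's quasi-likelihood test 0 of 14472 genes (0.0%) passed an adjusted p of 0.05, 0 up (0.0%) and 0 down (0.0%), and the smallest adjusted p was 0.734. At an unadjusted p under 0.05 there were 659 genes up (4.55%) and 294 down (2.03%), 953 in all. DESeq2, run on the same design, called 46 genes up (0.318%) and 0 down, and 43 of these 46 had the same sign in all 3 courses and 10 were among the 12 genes described next.

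The 12 genes higher in all 3 courses, which were singled out after their values had been seen, were Igf2, Igfbp5, Col1a1, Col3a1, Tnc, Vtn, Shh, Bmp4, Slit1, Epha3, Fat4 and Myh7. Most of them encode secreted or cell-surface proteins: an insulin-like growth factor and a protein that binds it (Igf2, Igfbp5), components of the extracellular matrix (Col1a1, Col3a1, Tnc, Vtn), ligands of developmental signalling (Shh, Bmp4, Slit1) and surface receptors or cadherins (Epha3, Fat4). Their values describe these 3 pairs and, since the rule chose them by this change, are not a test of it.

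Igf2 (chr7:142650766-142666816, - strand, GRCm38), an imprinted growth factor gene, went from 65.9 to 394 CPM in EB, from 100.0 to 324 in EpiSC and from 244 to 519 in Neural, and all 3 day 7 libraries lay above all 3 day 5 libraries. Its log2 fold change over the 3 pairs was 1.77 ± 0.28 (SE, n = 3 pairs, adjusted p = 0.734 in edgeR's test and 1.2e-07 in DESeq2). Here and below ± is the SE of edgeR's fit, whose error is moderated over genes, and not the spread between the pairs. Igfbp5, which encodes a binding protein for insulin-like growth factors, went from 9.8 to 145 CPM in EB, 52.8 to 316 in EpiSC and 70.8 to 237 in Neural. Its log2 fold change was 2.69 ± 0.40 (n = 3 pairs; adjusted p = 0.734 in edgeR's test and 5.2e-12 in DESeq2), the largest among the 12 genes after Shh.

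Levels of the matrix genes also differed between courses. Col1a1, a chain of type I collagen, stood at 0.97 to 6.27 CPM in EB, 11.3 to 89.6 in EpiSC and 4.12 to 10.0 in Neural. Col3a1, the type III collagen chain, stood at 0.408 to 4.97, 55.6 to 183 and 2.29 to 5.7 CPM in the same order, and Tnc, the matrix glycoprotein tenascin C, at 0.766 to 6.85, 136 to 358 and 4.93 to 11 CPM. The EpiSC library at day 5 exceeded the EB and Neural libraries at day 7 for all 3 of these genes. Vtn, which encodes vitronectin, was lowest in EpiSC, at 0 to 1.27 CPM, with 0.817 to 4.05 in EB and 3.44 to 14 in Neural.

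Among the ligands, Shh had 0 reads in EB at day 5 and 60 reads at day 7, at least 18.9-fold higher against a floor of 3 reads per library, and it went from 0.135 to 2.17 CPM in EpiSC and 0.516 to 5.26 in Neural. In the EB course from 2iL it also went from 0 reads to 98, at least 35.2-fold higher. Bmp4 went from 2.5 to 6.22 CPM in EB, 4.45 to 10.8 in EpiSC and 1.6 to 4.68 in Neural, with no overlap between days. Slit1, a guidance ligand for axons, went from 1.89 to 9.06, 2.63 to 8.14 and 19.7 to 53.4 CPM in the same order. Epha3, an ephrin receptor, went from 0.255 to 2.36, 1.28 to 5.76 and 1.26 to 3.87 CPM, Fat4, an atypical cadherin, from 5.21 to 22.7, 5.47 to 15.2 and 26.8 to 56.4, and Myh7, a myosin heavy chain of slow and cardiac muscle, from 1.12 to 6.65, 1.49 to 5.65 and 12.7 to 34. In the 2iL courses, which the choice had not used, 11 of the 12 genes were higher at day 7 in EB, 9 of them by at least 1 log2 unit, and 12 of 12 were higher in Neural, 9 by as much. Over all genes at this level the share higher by at least 1 log2 unit was 5.75% in EB and 6.8% in Neural from 2iL.

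**Figure D2:**
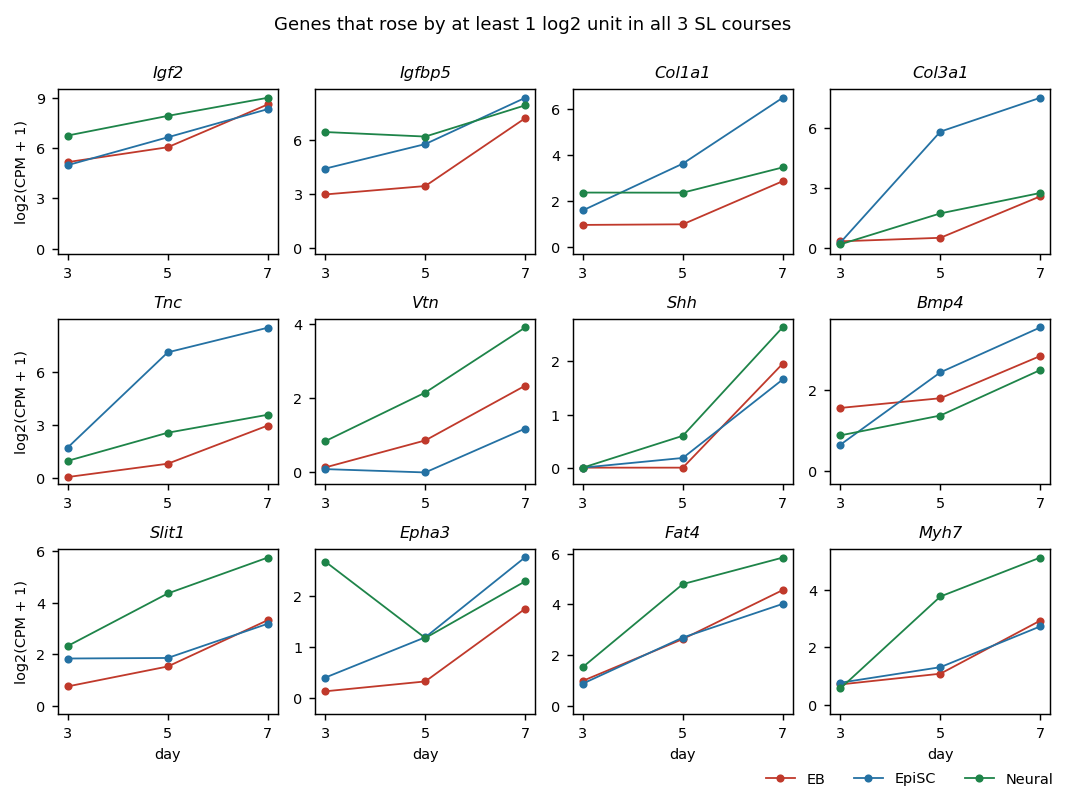
Log2(CPM + 1) of the 12 genes at day 3, day 5 and day 7 in the 3 SL courses, 1 library per point. Every line goes up by at least 1 unit between day 5 and day 7, while Epha3 in the Neural course was higher at day 3 than at day 5.

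Among the gene lists, smooth muscle and mesenchyme and the imprinted genes held the most members at a low unadjusted p over the 3 pairs. Of 18 tested genes of smooth muscle and mesenchyme, 10 were up and 0 down at an unadjusted p under 0.05, against 4.55% and 2.03% of all genes. Their median log2 fold change was 0.72, against 0.01 over all genes. The median change on the log2(CPM + 1) scale was 1.01 in EB, 0.80 in EpiSC and 0.52 in Neural. Acta2, smooth muscle actin, went from 3.01 to 24.4 CPM in EB, 88.7 to 167 in EpiSC and 54.8 to 116 in Neural, and Postn, the matrix protein periostin, from 0.102 to 6.51, 2.36 to 9.35 and 0.516 to 1.9. Cnn1, a smooth muscle calponin, did not move together, at 15.1 to 3.86 CPM in EB and 2.52 to 5.48 in Neural. Of 20 tested imprinted genes, 7 were up and 1 down at an unadjusted p under 0.05, with a median of 0.42. H19, the non-coding RNA beside Igf2, stood at 39.4 to 102 CPM in EB, 15.8 to 26.2 in EpiSC and 63.1 to 165 in Neural, and Peg3 at 382 to 705, 407 to 625 and 661 to 1128. Mest went in opposite directions, from 149 to 762 CPM in EB and from 884 to 341 in Neural. Igf2 and the collagen genes counted here are also among the 12 genes above.

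The second question was which changes differed between courses. For EB and Neural the 2iL libraries gave a second pair each, so that the difference of the change could be tested over 8 libraries. In edgeR's quasi-likelihood test of this difference, 986 of 15186 genes (6.49%) passed an adjusted p of 0.05: 482 (3.17%) with a change more positive in Neural and 504 (3.32%) with a change more positive in EB. The count fell to 307 without the block for each pair. It was 0 when the Neural pair from 2iL was left out, 46 without the Neural pair from SL, 1738 without the EB pair from 2iL and 2500 without the EB pair from SL, so it depended most on the Neural pairs.

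The 5 genes with the widest difference toward EB, at a mean of 5 CPM or more, were Cp, Tmem132c, Pax3, Zic1 and Bmp5, and the 5 toward Neural were Enpp2, Elavl3, Foxd3, Nefm and Ndrg2. Zic1 (chr9:91358058-91365810, - strand, GRCm38), a zinc finger gene of the dorsal neural tube, went from 0.612 to 32.9 CPM in EB and 0.192 to 2.77 in EB from 2iL, and from 15.2 to 5.63 CPM in Neural and 9.42 to 2.85 in Neural from 2iL. The change in Neural minus that in EB was -6.55 ± 0.54 on the log2 scale (n = 2 pairs per course; adjusted p = 0.00619). Pax3, a paired-box gene of the dorsal neural tube and neural crest, went from 0.306 to 8.73 CPM in EB and 0.12 to 4.71 in EB from 2iL, and from 11.3 to 2.92 in Neural and 8.53 to 3.52 in Neural from 2iL, a difference of -6.58 ± 0.44 (adjusted p = 0.00379). In every one of these pairs the EB course went up and the Neural course went down.

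Cp, which encodes ceruloplasmin, had the largest fitted difference of these 10 genes, -11.10, but that value depends on 0 reads in EB at day 5. It went from 0 to 99 reads in EB, at least 31.2-fold, and from 0 to 81 reads in EB from 2iL, at least 29.1-fold, while in Neural it went from 17.2 to 5.55 CPM and in Neural from 2iL from 26.5 to 4.85. Tmem132c, a transmembrane protein gene, went from 0.255 to 28.6 CPM in EB and 0.793 to 15.6 in EB from 2iL, and from 33.6 to 11.6 in Neural and 55.2 to 10.6 in Neural from 2iL (difference -7.00 ± 0.62, adjusted p = 0.00697). Bmp5, a BMP ligand, went from 0.817 to 13.1 CPM in EB and 0.673 to 60.4 in EB from 2iL, and stayed below 1 CPM in all 4 Neural libraries (difference -6.45 ± 1.07, adjusted p = 0.027).

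Among the genes that rose more in Neural, Elavl3, a neuronal RNA-binding protein gene, went from 9.65 to 1.98 CPM in EB and from 5.1 to 21.6 in Neural, with 4.76 to 0.751 and 9.42 to 36.9 from 2iL (difference 4.52 ± 0.26, adjusted p = 0.00347). Nefm, a neurofilament subunit, went from 4.75 to 3.09 CPM in EB and 7.79 to 36 in Neural, a difference of 4.07 ± 0.59 (adjusted p = 0.0193). Foxd3, a regulator of the formative epiblast and later of neural crest, went from 21.1 to 5.59 CPM in EB and 0.859 to 2.7 in Neural (4.44 ± 0.72, adjusted p = 0.0255). Enpp2, which encodes autotaxin, went from 68.9 to 16.9 and 3.61 to 15.7 CPM (4.88 ± 0.63, adjusted p = 0.0151), and Ndrg2 from 14.6 to 3.71 and 0.516 to 2.63 CPM (4.06 ± 0.40, adjusted p = 0.00858). All 5 were lower at day 7 in both EB pairs and higher in both Neural pairs. The levels given for Nefm, Foxd3, Enpp2 and Ndrg2 are from SL, whereas the differences use the pairs from both media. Without the EB pair from 2iL the difference was smaller for Nefm (2.86), Foxd3 (3.525), Enpp2 (3.96) and Elavl3 (4.30), and larger for Ndrg2 (4.23).

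To say which genes rose or fell within a course, the 2 pairs of EB (SL and 2iL) and the 2 pairs of Neural were each tested in the same model, a comparison added after the values had been seen. In EB 1110 genes (7.31%) rose and 537 (3.54%) fell, 1647 in all (10.8%) of 15186. Leaving out the EB pair from SL gave 3435 and leaving out that from 2iL gave 1424. In Neural 522 genes (3.44%) rose and 206 (1.36%) fell, 728 in all (4.79%), and the count was 0 when either Neural pair was left out. The number of genes that rose in both courses was 113, 10.2% of those that rose in EB and 21.6% of those that rose in Neural. Another 46 rose in EB and fell in Neural, 4.14% of the EB rises and 22.3% of the Neural falls, 47 fell in EB and rose in Neural (8.75% of the EB falls and 9.0% of the Neural rises), and 4 fell in both (0.745% and 1.94% of the falls). In the sentences that follow, rose and fell refer to these tests. Counts of list members can be read beside the shares of all genes, 7.31% rising and 3.54% falling in EB, 3.44% and 1.36% in Neural.

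Of 19 neural progenitor genes, 12 rose and 1 fell in EB, whereas 2 rose and 5 fell in Neural, and 9 had a difference past the threshold, all toward EB. Median changes from SL were 1.11 log2 units in EB, 0.62 in EpiSC and -0.42 in Neural, against 0.01, 0.05 and -0.02 over all genes. Sox1, an early marker of the neural plate, went from 5.92 to 44.2 CPM in EB, 17.4 to 50.6 in EpiSC and 69.6 to 26.3 in Neural. The 2iL pairs moved in the same directions, from 1.13 to 13.8 CPM in EB and 106 to 41.9 in Neural. Its log2 fold change was 3.20 ± 0.19 in EB (adjusted p = 0.00261) and -1.33 ± 0.16 in Neural (adjusted p = 0.0308). Pax6, a regulator of neural progenitors, went from 1.74 to 11.8 CPM in EB, 2.97 to 10.8 in EpiSC and 53.1 to 25.5 in Neural (log2 fold change 2.35 ± 0.21 in EB and -1.06 ± 0.16 in Neural). For Sox1 and Pax6 the levels of the 3 courses were closer to one another at day 7 than at day 5. The exception on the list was Nes, which encodes the intermediate filament nestin and fell in EB, from 169 to 84.2 CPM from SL and 241 to 72.3 from 2iL. Nkx6-1, a gene of ventral progenitors, rose in both courses, from 0.153 to 7.33 CPM in EB and 8.31 to 18.9 in Neural.

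**Figure D3:**
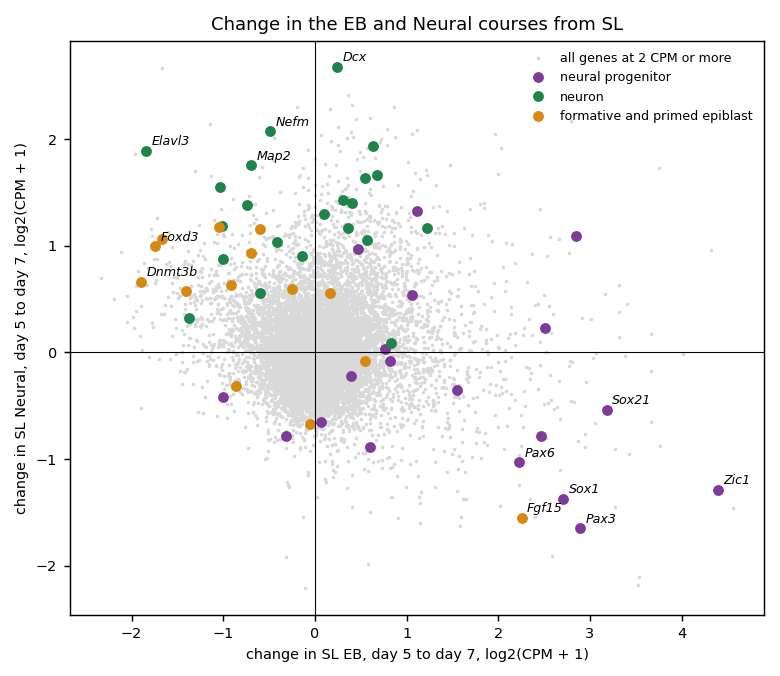
Change in log2(CPM + 1) from day 5 to day 7 in the SL EB library pair (horizontal axis) and in the SL Neural pair (vertical axis), 1 point per gene. Sox1, Pax6, Pax3 and Zic1 lie at the lower right (higher at day 7 in EB, lower in Neural), and Elavl3, Nefm, Map2 and Dnmt3b at the upper left.

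The genes with the widest range of change over the 3 SL courses showed the EpiSC course on the side of EB. Crabp1, a retinoic acid-binding protein gene, went from 2.25 to 18.5 CPM in EB, from 10.7 to 356 in EpiSC and from 549 to 146 in Neural (difference of Neural and EB -5.95 ± 0.48, adjusted p = 0.00619). At day 5 the Neural library held the most Crabp1 and at day 7 the EpiSC library did. Ptn, the growth factor pleiotrophin, went from 2.45 to 39.1, 9.72 to 33.6 and 45 to 9.72 CPM (difference -5.91 ± 0.37), and Lix1 from 1.74 to 30.5, 3.51 to 5.34 and 19.4 to 3.51 CPM (difference -5.68 ± 0.70). Tmem132c and Zic1 were the others by this rule, at 3.1 to 42.3 and 3.51 to 20.1 CPM in EpiSC. These 5 genes were chosen for this range, and the EpiSC values have no replicate.

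Neuronal genes set the Neural course apart. Of 24 tested genes, 14 rose and 0 fell in Neural, while 2 rose and 5 fell in EB, and 11 had a difference past the threshold, all toward Neural. The median change from SL was 1.34 log2 units in Neural, 0.30 in EpiSC and -0.02 in EB. Dcx, a microtubule-binding protein of young neurons, went from 8.31 to 58.5 CPM in Neural and 12.3 to 122 in Neural from 2iL, but from 0.868 to 1.21 in EB and 0.945 to 2.8 in EpiSC. Its log2 fold change in Neural was 3.11 ± 0.31 (n = 2 pairs; adjusted p = 0.0271). Tubb3, a neuronal tubulin, rose from 38 to 120.2 CPM in Neural from SL and 58.5 to 211 from 2iL, and Map2, a dendritic microtubule protein, from 16.7 to 58.8 and 18.1 to 99.3. Stmn3 and Snap25, a synaptic fusion protein gene, rose in Neural and fell in EB, with Snap25 at 1.2 to 4.75 CPM in Neural and 1.48 to 0.482 in EB. Outside the list, Cntn2, an axonal adhesion molecule gene, rose from 5.84 to 42.5 CPM and Robo3, a receptor that steers axons across the midline, from 1.95 to 10.6 in Neural from SL. The largest falls in Neural were those of Lix1, Insl6 (24.3 to 4.46 CPM), Rln1 (12.7 to 2.63 CPM), Ptn and Agtr1a (11.1 to 3.44 CPM).

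Changed in the SL Neural library alone, with at least 2 log2 units there and less than 0.5 in each of the other courses, were 10 genes higher (0.0736%), 9 of them with a named symbol, and 0 lower. These were Serpinb9g, Scg2, Akap6, Diras2, Clvs1, Nefm, Krt20, Serpinb9f and Ptk6. Of these, Diras2 also rose in the EB test at low levels, from 0.051 to 0.434 CPM from SL and 0.216 to 0.906 from 2iL. Scg2, a secretogranin of neuroendocrine vesicles, went from 0.286 to 5.33 CPM in Neural and stayed below 1 CPM in the other 4 libraries. Akap6, a scaffold for protein kinase A, went from 3.9 to 22.9 CPM, and Serpinb9g, a serine protease inhibitor gene with near-identical neighbours that the counting may split, from 0.688 to 7.97. In Neural from 2iL, which the rule did not use, all 9 went up by at least 1 log2 unit, with a median of 2.25, where 6.8% of all genes did. Which genes met the rule depended on the pseudocount, and of the 9 only 3 met it with 0.5 CPM and 1 with 2 CPM in place of 1.

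Keratins and epithelial genes were also part of the Neural change. Of 10 tested, 7 rose in Neural and 0 fell, against 3 and 3 in EB. Krt8, a keratin of simple epithelia, rose from 311 to 631 CPM in Neural and stood at 649 to 287 in EpiSC, and Cdh1, E-cadherin, rose from 142 to 252 CPM in Neural and fell from 505 to 242 in EB (difference 2.63 ± 0.32, adjusted p = 0.013). Genes of cell division were lower in Neural: 6 of 20 fell and 0 rose there, all of them genes of DNA replication (Mcm4, Mcm5, Mcm6, Mcm7, Pcna and Rrm2), with Mcm7 going from 362 to 233 CPM, while 0 of 20 passed the test in EB. Pluripotency genes went different ways in Neural. The RNA-binding protein genes Lin28a and Lin28b fell, Lin28a from 640.3 to 409 CPM and Lin28b from 109 to 53.4 from SL. Pou5f1 stood at 55 to 98.5 CPM from SL and 18.8 to 55.8 from 2iL, and Tfcp2l1, a factor of naive cells, rose from 42.2 to 116 CPM from SL and 20.8 to 97.8 from 2iL (log2 fold change 1.87 ± 0.19, adjusted p = 0.0275). Some endoderm markers stood high in the same libraries, with Cubn, the endocytic receptor cubilin, at 1644 to 1769 CPM. Tfcp2l1, Krt8, Cubn, Sox17 and Foxa2 had higher levels in Neural than in EB at day 7. Other endoderm genes went the other way, with Apob at 141 CPM in Neural and 1484 in EB, and Afp at 56.4 and 602. The summed level of the endoderm and extraembryonic endoderm genes at day 7 was 3130 CPM in Neural and 3287 in EB. The part of other cell types in these values was not tested.

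Genes of the formative and primed epiblast fell in the EB course. Of 14 tested, 9 fell and 1 rose in EB, and 1 fell and 1 rose in Neural. The differences past the threshold were 7 toward Neural and 1 toward EB. The median log2 change over the 14 was -0.78 in EB from SL, -0.74 in EpiSC, which allows no test, and 0.61 in Neural, so EpiSC lay near EB. Dnmt3b, a de novo DNA methyltransferase, fell from 2072 to 557 CPM from SL and 1536 to 243 from 2iL (log2 fold change -2.28 ± 0.19, adjusted p = 0.00493), and went from 597 to 357 CPM in EpiSC and 183 to 290.3 in Neural. The kinase gene Pim2 fell from 385 to 121 CPM, Pou3f1 from 47 to 17.2 and Fgf5 from 71.1 to 34 in EB from SL. Fgf15, the member that rose in EB, went from 11.1 to 56.9 CPM and fell in Neural, from 54.4 to 17.9. Pou5f1, the general pluripotency factor Oct4, fell in EB from 412 to 133 CPM from SL and 551 to 74.6 from 2iL (log2 fold change -2.26 ± 0.32, adjusted p = 0.0128), and L1td1 and Utf1 fell with it, while Sox2 stood at 96.2 to 93.9 CPM and Lin28a at 712 to 714. Nanog went from 109 to 72.9 CPM in EB and from 85.4 to 208 in EpiSC, the only course in which it was higher at day 7 by at least 1 log2 unit.

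Genes of forebrain, midbrain and hindbrain rose in the same EB libraries. Of 15 tested, 7 rose and 0 fell in EB, against 7.31% and 3.54% of all genes, and 0 passed the test in Neural in either direction. The median change from SL was 1.48 log2 units in EB, 0.23 in EpiSC and -0.14 in Neural. En1, a gene of the midbrain and hindbrain boundary, rose from 1.53 to 21.6 CPM from SL and 0.601 to 7.3 from 2iL, and Pax5, which marks the same region, from 0.561 to 30.3 and 0.096 to 3.81. Lhx2, a gene of eye field and forebrain, rose from 0.663 to 7.09 CPM from SL. Hox genes, which mark the hindbrain and trunk, rose in 12 of 24 tested in EB, but from low levels. Their summed level was 4.8 CPM at day 5 and 17.5 CPM at day 7 in EB from SL. It was 89.6 and 74.9 CPM in EpiSC and 102 and 64.7 CPM in Neural. The change was larger from 2iL. Of 16 Hox genes at 2 CPM or more, 2 were higher by at least 1 log2 unit in EB from SL (median 0.33). In EB from 2iL 9 were (median 1.27). The shares of all genes were 4.47% and 5.75%. Unc5c, a netrin receptor gene, was among the largest rises of the EB tests, from 2.71 to 36 CPM from SL and 1.73 to 251 from 2iL. Hand1, of lateral and extraembryonic mesoderm, stood at 3.83 to 17.7 CPM from SL and 1.9 to 354 from 2iL, which did not pass the test over these 2 pairs (log2 fold change 5.18 ± 1.31, adjusted p = 0.0588).

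In the SL EB library alone 22 genes were higher (0.162%) and 1 lower by the same rule. Of the 22, 14 met the rule with a pseudocount of 0.5 CPM and 11 with one of 2 CPM. The 6 with the largest difference were Otx1, En2, Apcdd1, Wnt8b, Dmrta1 and Chst2, and the gene that was lower was Gstt2, at 34.6 to 7.62 CPM. Otx1, a homeobox gene of forebrain and midbrain, went from 0.612 to 19.4 CPM in EB and stayed below 1 CPM in the other 4 libraries. En2, a partner of En1 at the midbrain and hindbrain boundary, went from 0.459 to 14.4 CPM, with 4.59 to 6.55 in EpiSC and 2.23 to 3.44 in Neural. Apcdd1, an inhibitor of Wnt signalling, went from 3.88 to 47.7 CPM, and Wnt8b, a Wnt ligand of the forebrain, from 0 to 149 reads, at least 46.9-fold. Of the 22 genes, 20 had the same direction in EB from 2iL and 12 went up by at least 1 log2 unit there, with a median of 1.19, where 5.75% of all genes did. The exceptions, named after their values had been seen, were En2, at 0.649 to 0.544 CPM in EB from 2iL, and Trp63, which went from 0.051 to 3.62 CPM in EB from SL and 0.096 to 0.052 from 2iL.

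In the EpiSC course most of the genes that changed there alone were lower at day 7. In the SL EpiSC library alone 21 genes were lower (0.155%), 12 of them with a named symbol, and 4 were higher (0.0294%). Lower were Irs4, Foxq1, Eomes, Prss12, Mixl1, Mt2, Rex2, Cubn, Tex19.1, Zfp600, Ctsc and Srgn. Eomes, a T-box gene of primitive streak and definitive endoderm, went from 58.4 to 9.67 CPM in EpiSC, from 86.2 to 67.4 in EB and from 6.7 to 6.14 in Neural. Mixl1, a homeobox gene of the streak, went from 7.9 to 0.793 CPM, with 22.4 to 16.5 in EB. Irs4, an adaptor of insulin receptor signalling, went from 106 to 15.5 CPM, Foxq1, a forkhead gene, from 64.7 to 9.56, and Mt2, a metallothionein, from 107 to 23.2. Rex2 and Zfp600 are zinc finger genes of a family with many near-identical copies, between which counting may have divided reads. The rule used the SL libraries only. In EB from 2iL 8 of the 12 genes were lower at day 7 as well, 6 of them by at least 1 log2 unit. Over all genes 6963 of 13587 were lower there, 3.3% of genes by as much. In Neural from 2iL 9 of the 12 genes were instead higher, 4 of them by at least 1 log2 unit. Eomes in EB from 2iL went from 254 to 53.2 CPM, Mixl1 from 75.7 to 7.43, Mt2 from 38.7 to 8.65 and Irs4 from 55 to 23.8. With a pseudocount of 2 CPM, 8 of the 12 genes met the rule.

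The same direction held for endoderm genes as a list, again 1 library against 1 library. Of 17 genes of endoderm and extraembryonic endoderm, 12 were lower by at least 1 log2 unit in EpiSC and 0 were higher. Of all genes, 2.77% were lower and 3.16% higher by as much there. The median of the list was -1.43 in EpiSC, against 0.68 in EB and 0.40 in Neural. Apob, the apolipoprotein of visceral endoderm and liver, stood at 560.1 CPM in EpiSC at day 3, 277 at day 5 and 22.4 at day 7, while in EB it went from 795 to 1484 between day 5 and day 7. Cubn stood at 425, 188 and 43.8 CPM at the same days in EpiSC. Hnf4a, a regulator of endoderm, went from 5.94 to 1.53 CPM and Afp from 6.88 to 1.0. The summed level of the list was 665 CPM at day 5 and 148 at day 7 in EpiSC. Of 14 streak and mesendoderm genes at this level, 6 were lower by at least 1 log2 unit and 1 was higher, with Lhx1 at 19.7 to 2.91 CPM and Lefty2, an inhibitor of Nodal, at 139 to 59.8. Its relative Lefty1 stood at 294 to 295 CPM. Among genes higher in EpiSC, Tfap2b, of neural crest and surface ectoderm, went from 0.067 to 17.6 CPM.

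The 4 genes higher in the SL EpiSC library alone were Pgm5, Chac1, Pycr1 and Pck2. Pycr1 makes proline, Pck2 is the mitochondrial enzyme that turns oxaloacetate into phosphoenolpyruvate, and Chac1 breaks down glutathione. All 3 are known targets of Atf4, a transcription factor that acts when amino acids are scarce or the endoplasmic reticulum is under stress. The promoter sequences of RefSeq (GRCm38.p6) were therefore searched for TGATGNAA, the letters of the composite site of C/EBP and Atf4 proteins, on both strands in the 250 bases before the start site. Chac1, Pck2 and Pycr1 held it and Pgm5 did not. The windows of 100 bases around these matches are shown with that of Asns, asparagine synthetase, whose regulation through this kind of site is well known, with the match in capitals. The windows are chr2:119351003-119351102 (+ strand) for Chac1, chr14:55540117-55540216 (+ strand) for Pck2, chr11:120643798-120643897 (- strand) for Pycr1 and chr6:7693210-7693309 (- strand) for Asns.
Chac1: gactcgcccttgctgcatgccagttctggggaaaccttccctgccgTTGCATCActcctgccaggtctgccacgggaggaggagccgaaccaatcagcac
Pck2: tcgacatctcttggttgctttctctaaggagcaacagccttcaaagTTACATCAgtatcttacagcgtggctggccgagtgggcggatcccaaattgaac
Pycr1: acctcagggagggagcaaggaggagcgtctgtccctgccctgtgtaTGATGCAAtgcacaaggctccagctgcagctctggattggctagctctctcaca
Asns: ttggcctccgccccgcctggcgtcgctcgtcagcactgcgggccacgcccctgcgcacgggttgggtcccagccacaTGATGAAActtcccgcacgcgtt

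The match lay 193 bases before the start site in Chac1, 103 in Pck2 and Pycr1 and 23 in Asns, and Chac1 and Pck2 held it on the opposite strand. It was present in 3.45% of all 32851 promoters and in 3.91% of 27025 genes. Of the genes lower in EpiSC alone 1 of 10 with a promoter held it, of those higher in EB alone 1 of 16 and of those higher in Neural alone 0 of 6. The letters were chosen because 3 of the 4 genes were known targets of Atf4, so their matches are not an independent test. A match is a description of the letters and does not show that a protein bound there.

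Chac1 stood at 39.9 CPM in EpiSC at day 3, 11.5 at day 5 and 55.9 at day 7, Pck2 at 32.2, 14.9 and 63.7, and Pycr1 at 33.6, 11.4 and 51.3. For these 3 genes day 5 was thus a low point, and the difference between day 5 and day 7 depends on the day 5 library as well as on that of day 7. A list of 34 genes of amino acid synthesis and transport was then drawn up after these values had been seen. Of the 34, 14 were higher by at least 1 log2 unit in EpiSC and 0 lower, against 3.16% and 2.77% of all genes. The median was 0.83, against 0.03 in EB and 0.08 in Neural. The letters were held by 9 of the 30 with a promoter (30.0%). As the list was chosen with these values known, neither its changes nor its share of matches is an independent test. EB from 2iL moved the same way as EpiSC, with 9 of the 34 higher by at least 1 log2 unit, 1 lower and a median of 0.54. Among all genes 5.75% were higher and 3.3% lower by as much in EB from 2iL. Over the EB pairs from SL and 2iL 5 of the 34 rose and 2 fell. All 4 genes higher in the SL EpiSC library alone were higher at day 7 in EB from 2iL and in Neural from 2iL. Of all 13587 genes, 6621 and 6616 were higher there. In EB from 2iL Chac1 went from 11.3 to 27.6 CPM and Atf4 from 202 to 304. Asns went from 171 to 447 CPM in EpiSC, from 130.1 to 173 in EB, from 177 to 376 in EB from 2iL and from 118 to 109.7 in Neural. Psat1, of serine synthesis, went from 213 to 535 CPM in EpiSC, Gpt2, an alanine aminotransferase, from 45.6 to 192, Slc7a5, an amino acid transporter, from 126 to 307, and Atf4 itself from 172 to 322. Ddit3, a gene of the stress response, did not share this and stood at 25.2 to 19.2 CPM, nor did Trib3, at 28.3 to 36. With 1 EpiSC library per day, these differences have no replicate check.

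**Figure D4:**
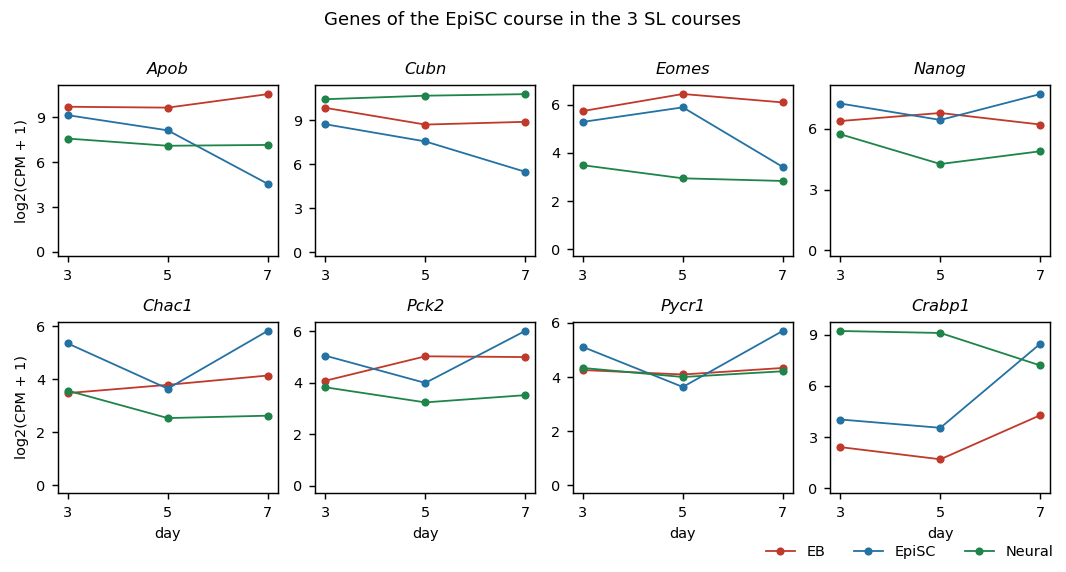
Log2(CPM + 1) at day 3, day 5 and day 7 of 8 genes in the 3 SL courses, 1 library per point. Apob, Cubn and Eomes go down from day 5 to day 7 in EpiSC (blue) and keep their level within 1 unit in EB and Neural, and Chac1, Pck2 and Pycr1 have a low point at day 5 in EpiSC.

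The change from day 5 to day 7 was also compared between cells that came from SL and from 2iL, over the EB and Neural pairs. In edgeR's test of this difference 0 of 15186 genes (0.0%) passed, 0 up (0.0%) and 0 down (0.0%), with 139 genes at an unadjusted p under 0.05. DESeq2 called 3 genes, all with the smaller rise from SL: Col4a1, Col4a2 and Lama1, which encode chains of basement membrane proteins and were named after their values had been seen. A miss of the threshold with 2 pairs per medium does not show that the media gave equal changes. Single genes stood far apart in level: Igf2 went from 65.9 to 394 CPM in EB from SL and from 11.9 to 914 in EB from 2iL, a difference of the change of -1.84 ± 2.06 between SL and 2iL over both courses (adjusted p = 1.0).

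The other lists are described by their medians. Genes of cholesterol synthesis had median changes of 0.19, 0.03 and -0.04 log2 units in EB, EpiSC and Neural, those of glycolysis and hypoxia -0.15, 0.31 and 0.13, and p53 targets and Cdk inhibitors -0.04, -0.19 and -0.13. Vegfa, the growth factor of blood vessels, stood at 32.9 to 62.3 CPM in EB, 48.9 to 86.8 in EpiSC and 43.8 to 68.8 in Neural. Cdkn1c, an imprinted Cdk inhibitor gene, rose in EB, from 18.7 to 48.6 CPM from SL. Naive genes had medians of 0.37, -0.22 and 0.59, general pluripotency genes -0.08, -0.30 and 0.32, and genes of the X inactivation centre -0.38, -0.17 and 0.26, over 4 genes at this level. Blood and endothelial genes had medians of 0.68, -0.33 and 0.38, with Kdr, a receptor of endothelial and blood progenitors, rising in EB from 9.95 to 29.2 CPM from SL and 8.24 to 136 from 2iL. Of 17 tested in this list, 6 rose in EB and 0 fell, against 7.31% and 3.54% of all genes. Cardiac muscle genes had medians of 0.89, 0.22 and 0.91, with 6 of 14 rising in EB, and genes of neural crest and glia 0.57, 0.22 and -0.09, with Tfap2b rising in EB from 0.051 to 3.42 CPM from SL.

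**Figure D5:**
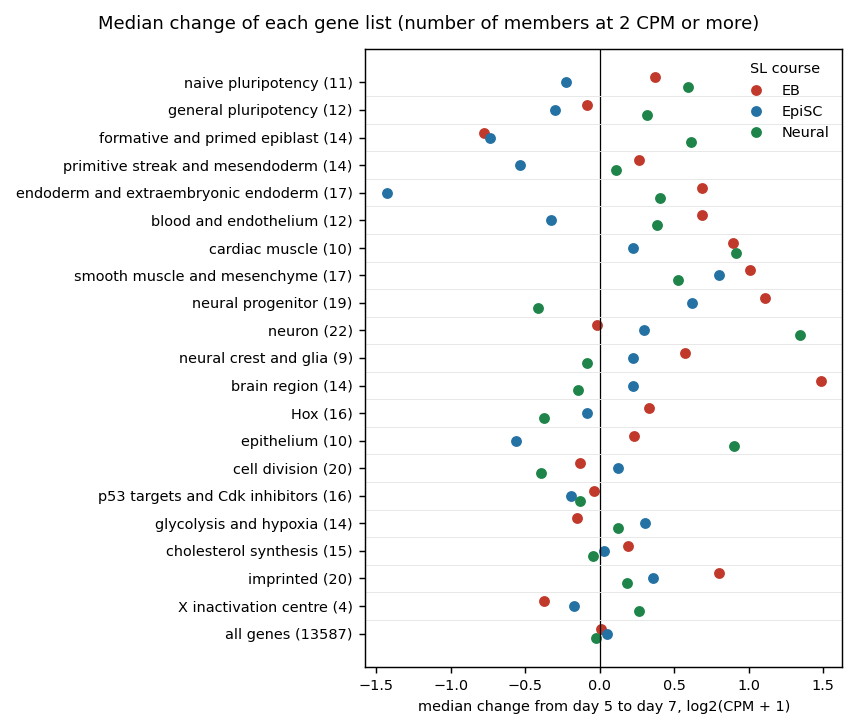
Median change in log2(CPM + 1) from day 5 to day 7 over the genes of each list at 2 CPM or more (their number in brackets), 1 point per SL course. Endoderm genes are lowest in EpiSC (-1.43), brain region genes highest in EB (1.48) and neuronal genes highest in Neural (1.34), while all genes lie near 0.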

How the data were processed

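RNA was depleted of ribosomal RNA and libraries were made with a directional kit. The authors trimmed reads with TrimGalore, aligned them to GRCm38/mm10 with TopHat2 and counted them per gene by strand with featureCounts, and they deposited these raw counts, which were analysed as deposited. Read totals ranged from 13577463 to 20169493 in the 6 SL libraries, and floors of 3 reads cover counting error only. CPM used TMM factors. Day 7 was compared with day 5 in edgeR 4.0.16 (R 4.3.3), by the quasi-likelihood test with Benjamini-Hochberg adjustment (0.05), after edgeR's filter on low counts, with the course as a block for the 3 SL pairs, and with a block for each pair and a course by day or medium by day term for the 8 EB and Neural libraries from SL and 2iL. DESeq2 1.42.0 was an alternative. Nothing says that libraries came from separate cultures, so p-values measure the spread between these libraries, after moderation over genes. The SE is the size of the log2 fold change divided by the square root of edgeR's F. In the fits of 8 libraries its error is common to both courses. The course titles gave the pairing. Deviations from the day means correlated within courses (0.51 in EB, 0.56 in EpiSC, 0.64 in Neural) and by -0.5 to 0.05 between them. Libraries of a course share a medium, so these correlations cannot show that a pair shared a culture. Genes changed in a single course had at least 2 log2 units there, less than 0.5 in both others, and 2 CPM in the highest library. Named were the 6 largest each way per course, the 5 largest differences each way at a mean of 5 CPM, the 5 widest opposite changes, the 2 highest and lowest members per list, and other list members as examples chosen with their values seen; Gm, Rik and pseudogene symbols were left out. Members and lists were chosen with earlier results of these data known. On simulated data the share of false calls lay above the threshold in every test, most in that of SL against 2iL, which recovered few changes.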

Additional observations from a re-analysis of the deposited data

Results flagged for a closer look

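The change from day 5 to day 7 differed between the EB and Neural courses at 986 genes by edgeR's test of the difference over 8 libraries. Among the named genes, the change in Neural minus that in EB, on the log2 scale, was -11.10 for Cp, -7.00 for Tmem132c, -6.58 for Pax3, -6.55 for Zic1, -6.45 for Bmp5, -5.95 for Crabp1, -5.91 for Ptn and -5.68 for Lix1. It was 4.88 for Enpp2, 4.52 for Elavl3, 4.44 for Foxd3, 4.07 for Nefm and 4.06 for Ndrg2. The value for Cp rests on 0 reads at day 5 in both EB libraries. Every value here uses the EB and Neural pairs from SL and from 2iL, and with the Neural pair from 2iL left out 0 genes passed.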

How the results depend on the processing

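The test over the SL courses rests on 3 pairs of libraries, and the other tests on 2 pairs per course or medium. An EpiSC value rests on 1 library per day. Over the 3 SL pairs the count of changed genes was 46 with DESeq2 against 0 with edgeR, and 0 under every other alternative run: DESeq2 size factors in edgeR, no filter, no replicate block, each course left out, the spread taken from all SL libraries, and the 2iL pairs added. The difference between EB and Neural gave 307 genes without the replicate block for each pair, and 0 to 2500 when 1 pair was left out, while DESeq2 (1205) and no filter (1220) stayed within 1.5 times of 986. The difference between SL and 2iL gave 3 genes with DESeq2 and 0 under the others. The EB test gave 1424 to 3435 genes with 1 EB pair left out and 1684 with DESeq2, and the Neural test 0 to 0 and 1275. In the EB and Neural tests and that of their difference, leaving out 1 pair leaves the error to the pairs of the other course. The cause of the shifts was not tested.

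Genes changed in a single course numbered 23 for EB, 16 for EpiSC and 9 for Neural among named symbols. A pseudocount of 2 CPM gave 14 in EB and 2 in Neural, a pseudocount of 0.5 CPM gave 28 in EpiSC, and a limit of 1 log2 unit for the other courses gave 58, 31 and 16. Of the 22 genes higher in EB alone, 14 were kept with 0.5 CPM and 11 with 2 CPM, of the 9 higher in Neural alone 3 and 1, of the 12 lower in EpiSC alone 12 and 8, and of the 4 higher there 4 and 2. Over the 3 SL pairs, the log2 fold change turned positive without the replicate block for Apob (0.44) and Cubn (0.048). With 1 course left out, its range included the other sign for Apob (-1.78 to 0.50), Cubn (-1.002 to 0.16), Cdh1 (-0.80 to 0.15), Cnn1 (-0.83 to 0.66), Nes (-0.69 to 0.058) and Krt8 (-0.11 to 1.035). None of these 6 genes passed the test over the 3 pairs.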

Other observations

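Imprinted genes were mostly higher at day 7 in the EB course. Of 21 tested over its pairs from SL and 2iL, 9 rose and 2 fell, whereas 1 rose and 1 fell in Neural. Peg10, a gene derived from a retrotransposon, rose from 341 to 976 CPM from SL and 393 to 2466 from 2iL, and Dlk1, a growth regulator, from 1.68 to 14.8 and 0.625 to 9.92. Snrpn, which encodes a splicing protein, fell from 223 to 82.6 CPM from SL and 300.1 to 80.5 from 2iL. The non-coding RNA gene Rian fell as well, from 632 to 506 and 1201 to 734 CPM, while in Neural it stood at 302 to 405 and 538 to 735.

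Slc7a3, a transporter of cationic amino acids, fell in EB, from 181 to 60.8 CPM from SL and 127 to 60.9 from 2iL, and rose in Neural, from 17.7 to 28.4 and 11.1 to 19.9 CPM. Its relative Slc7a1 rose in EB, from 32.1 to 78 and 35.6 to 125 CPM. Slco2a1, a prostaglandin transporter gene, rose in Neural from 18.7 to 97.4 CPM from SL and 8.18 to 76.9 from 2iL, and stood at 29.2 to 10.6 CPM in EpiSC.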
